A study of Mus musculus with 4 samples.

Results

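The genes described here are 9 imprinted genes that act in embryonic growth and differentiation: Igf2, Mest, Nnat, Plagl1, Peg10 and Snrpn, which are known to be expressed from the paternal allele, and H19, Meg3 and Cdkn1c, which are known to be expressed from the maternal allele. They were taken by name from the authors' deposited table of cluster marker genes, in every cluster that lists them, which gave 9 of its 1197 genes and 56 of its 2212 entries. Each entry sets the cells of 1 of 15 numbered clusters against all other cells. The cells came from mouse embryonic stem cells taken through a directed cardiac differentiation, profiled by 10x droplet sequencing of single cells with the V2 chemistry. The libraries were a BRM knockout carrying BRG1 3XFLAG at a mesoderm stage and at a stage of cardiac progenitors, and the line with BRG1 3XFLAG alone at the same stages, all at passage 2-4. All 4 therefore share the tagged BRG1, and each of the 4 groups is 1 library.

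The table names no library, so knockout and wild type were not compared, nor were the stages, and no value has a replicate or a test. Smarca2, which encodes BRM, has 0 entries, so the genotype labels were not checked. The deposited name of the table mentions only the knockout, and the sources used here do not say which libraries are behind it. The number of cells and the depth of each cluster are unknown. Detection can follow depth, and its part in any difference below was not tested. Of 4 endothelial markers looked up, none was listed higher in any cluster. The clusters were made from the same expression values, so every value below is a description of the clusters.

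Imprinted genes, whose parental alleles differ in DNA methylation laid down in the germ line, are expressed mainly from the allele of 1 parent. Many control how large the embryo and placenta grow, and they are often active together in embryonic tissue and silenced after birth. Igf2 encodes a fetal growth factor and Cdkn1c encodes p57Kip2, an inhibitor of cyclin-dependent kinases that restrains growth. The counts used here join both alleles, so the classes paternal and maternal are background knowledge and were not measured in these cells.

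The genes lie on 5 chromosomes. Igf2, H19, Cdkn1c and Snrpn are on chromosome 7, Mest and Peg10 on chromosome 6, Nnat on chromosome 2, Plagl1 on chromosome 10 and Meg3 on chromosome 12. Several of them also carry microRNAs inside their transcribed region, which the poly(A) counts of the table do not measure. The mature sequences are shown because they are separate products of the same loci whose host transcripts are described below. They are from RefSeq (build GRCm38.p6, not the mm9 build of the counts), 5′ to 3′, with the seed (bases 2 to 8) in capitals.
mmu-miR-675-5p: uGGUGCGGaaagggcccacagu
mmu-miR-675-3p: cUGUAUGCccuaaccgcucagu
mmu-miR-483-5p: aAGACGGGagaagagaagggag
mmu-miR-483-3p: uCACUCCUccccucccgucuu
mmu-miR-335-5p: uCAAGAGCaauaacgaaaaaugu
mmu-miR-335-3p: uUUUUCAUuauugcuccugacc
mmu-miR-770-5p: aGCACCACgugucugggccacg
mmu-miR-770-3p: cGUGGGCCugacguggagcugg
The pair named miR-675 lies in an exon of H19, with the 5p arm at chr7:142577112-142577133 on the minus strand. The pair named miR-483 lies in an intron of Igf2 (5p arm at chr7:142654968-142654989, minus strand), and miR-335 in an intron of Mest (5p arm at chr6:30741314-30741336, plus strand). The pair named miR-770 lies in an exon of at least 1 annotated Meg3 transcript (5p arm at chr12:109563710-109563731, plus strand). No seed is shared among these 8 sequences. A further microRNA, mmu-miR-1906, lies in an exon of Meg3, and its sequence is not shown. Exons and introns here are those of the GENCODE annotation.

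The number of clusters that list a gene differed widely among the 9. Their median was 7 listing clusters, against a median of 1 over all 1197 genes, and 6 of the 9 were listed for at least 6 clusters, against 5.43% of all genes. Nnat was listed for 11 of the 15 clusters, Mest for 10, Igf2 and Meg3 for 8 each, Cdkn1c for 7 and H19 for 6. Snrpn was listed for 4, and Plagl1 and Peg10 for 1 each, like 66.0% of all genes. The genes were proposed with this table in view, so nothing is read from that breadth. Of the 56 entries 20 were higher inside the cluster and 36 lower. Over all genes and clusters, 7.27% of gene and cluster combinations were listed higher and 5.05% lower. The larger detection in each entry, inside or outside, was at least 25.1%. A gene detected in fewer cells than this floor can mostly be listed only where it is higher. Median detection over all cells was 49.6% for the 9 genes and 21.2% for all genes. The directions of the 9 and of all genes are therefore not strictly comparable.

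**Figure D1:**
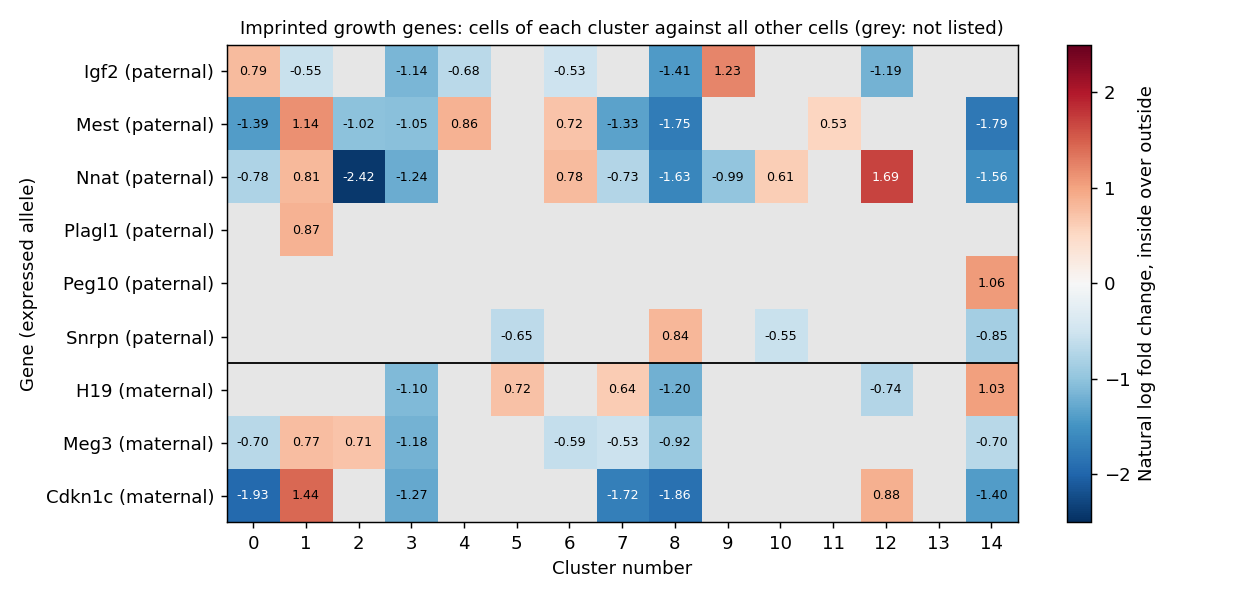
Deposited natural log fold change of each imprinted gene (rows, expressed allele in brackets) in each cluster (columns), with red for higher and blue for lower inside the cluster and grey where the gene is not listed. Clusters 3 and 8 each list 6 genes lower, cluster 1 lists 5 higher, and cluster 13 lists none.

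Igf2 and its neighbour H19 come first. Their promoters compete for shared enhancers through a methylated control region between them, so that the paternal copy makes Igf2 and the maternal copy makes H19, a long noncoding RNA. Igf2 was detected in 49.6% of all cells, a share worked out from the cluster sizes. In the authors' deposited table it was highest in cluster 9 (led by Igfbp7 and Tagln), at 3.42-fold, with detection in 84.3% of cells inside against 48.5% outside. It was also higher in cluster 0 (led by Crabp1 and Tcf15), at 2.21-fold, with 77.9% inside against 44.4% outside, per the authors' deposited table. Cluster 0 is large, with 15.5% of cells, and held 24.4% of all cells that detected Igf2.

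Igf2 was lower in 6 clusters. The strongest differences were in clusters 8, 12 and 3. Cluster 8 (led by Pou5f1 and Dnmt3b) was 4.11-fold lower, with 11.6% of cells inside against 52.1% outside by the authors' deposited table. Cluster 12, which is led by the neuronal tubulin Tubb3, was 3.28-fold lower and cluster 3, led by the keratin Krt8 and by T, was 3.11-fold lower by the authors' deposited table. Smaller differences stood in cluster 4 at 1.97-fold lower, cluster 1 at 1.73-fold and cluster 6 at 1.69-fold, all from the authors' deposited table. The values of clusters 1 and 6 lie near the table's threshold of 0.5 on the natural log scale, and both passed under it when cluster 0 (1.45-fold and 1.42-fold lower) or cluster 9 (1.60-fold and 1.56-fold lower) was left out of the cells they are set against.

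H19 was detected in 42.6% of all cells. It was higher in cluster 14 (led by Col4a1) at 2.80-fold, in cluster 5 (led by Sostdc1 and cartilage collagens) at 2.06-fold and in cluster 7 (led by Crabp1 and Clu) at 1.89-fold, by the authors' deposited table. Detection of H19 was 63.3%, 70.7% and 76.7% inside these clusters, against 42.5%, 40.0% and 40.0% outside, per the authors' deposited table. It was lower in cluster 8 at 3.32-fold, in cluster 3 at 2.99-fold and in cluster 12 at 2.10-fold, all from the authors' deposited table. All 3 low clusters of H19 were thus also low for Igf2, and in no cluster was either listed higher where the other was listed lower. They shared none of their higher clusters. Cluster 7 listed H19 and not Igf2, and cluster 0, which has the same leading gene Crabp1, listed Igf2 and not H19. Absence from a cluster's list leaves room for a difference below the threshold.

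To put the clusters on 1 scale, each deposited fold was turned into a level relative to the mean of all cells. Both include the constant that the authors added before the log, so the ranges given are compressed for scarce transcripts. On that scale Igf2 stood at 3.17 in cluster 9 and 0.255 in cluster 8, a range of 12.4-fold. H19 stood at 2.79 in cluster 14 and 0.314 in cluster 8, a range of 8.88-fold. The 7 clusters that do not list Igf2 had a mean level of 1.12 and the 9 that do not list H19 a mean of 0.971. Levels within 1.5 times of each other are not ranked here, because no spread between samples is available.

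**Figure D2:**
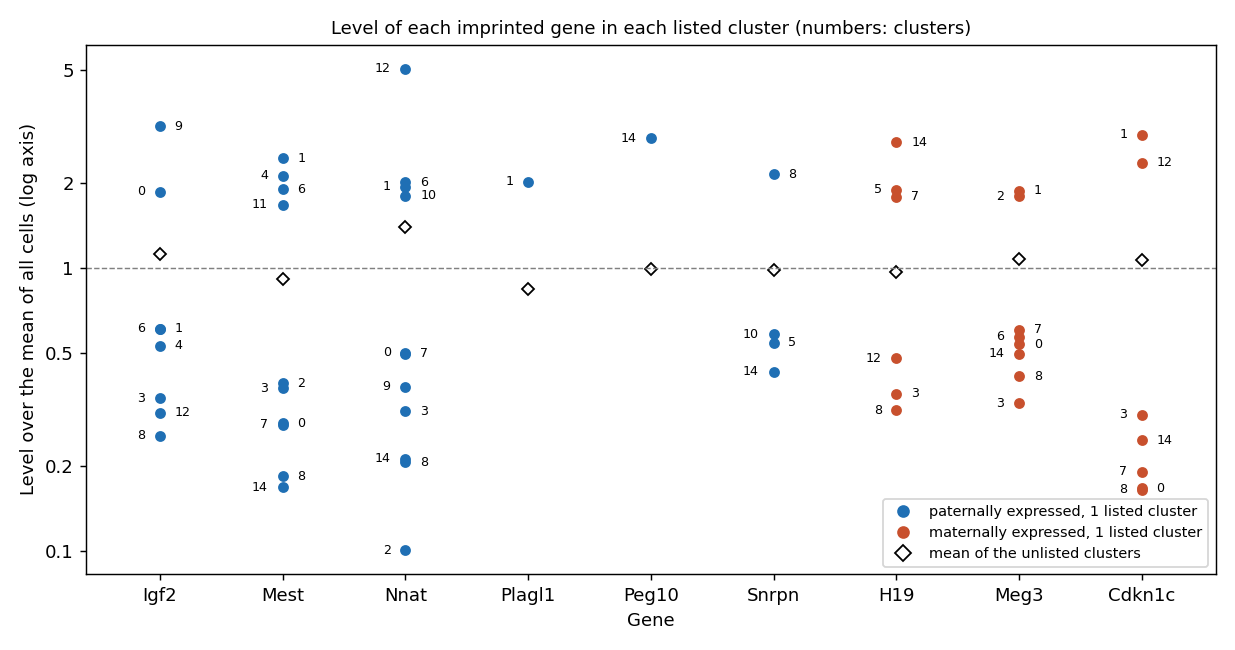
Level of each gene in each cluster that lists it, over the mean of all cells (log axis), with the cluster number beside each point and the mean of the unlisted clusters as an open diamond. Nnat spans the widest range, 5.07 in cluster 12 and 0.101 in cluster 2, while the diamonds lie between 0.844 and 1.40.

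Cdkn1c had wide differences in both directions. It was the second strongest gene of cluster 1, after Rax, an eye field regulator, at 4.22-fold higher with 95.2% of cells inside against 50.2% outside by the authors' deposited table. Cluster 12 was 2.41-fold higher, with 88.8% inside against 55.7% outside, per the authors' deposited table. Of all cells that detected Cdkn1c, 22.5% were in cluster 1, which makes up 13.3% of all cells. In contrast, 5 clusters were lower: cluster 0 at 6.92-fold, cluster 8 at 6.41-fold, cluster 7 at 5.57-fold, cluster 14 at 4.07-fold and cluster 3 at 3.56-fold, by the authors' deposited table. Detection in those 5 clusters lay between 16.2% and 34.8%, against 56.3% to 63.6% of the cells outside them, per the authors' deposited table. The 8 clusters that do not list Cdkn1c detected it in 72.8% of their cells on average, at a mean level of 1.06.

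Of 7 other cyclin-dependent kinase inhibitor genes looked up, 2 were in the table, and all 4 of their entries were higher, against 59.0% of all entries of the table. Of these 4, 3 were in clusters 2 and 14, which list 22.7% and 26.2% of all genes as higher. Detection outside the cluster was 1.40% to 21.4% in the 4 entries, under the floor of 25.1%, so they could be listed only as higher. Cdkn1a, which encodes the inhibitor p21, was 3.88-fold higher in cluster 2, 3.57-fold in cluster 9 and 1.83-fold in cluster 14 by the authors' deposited table. Cdkn2a was 2.16-fold higher in cluster 14 by the authors' deposited table. Clusters 2 and 9 do not list Cdkn1c, and in cluster 14 Cdkn1a was listed higher and Cdkn1c lower.

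Plagl1 encodes a zinc finger transcription factor, also called Zac1, that is known to act on other imprinted genes including Igf2, H19 and Cdkn1c. It was listed for cluster 1 alone, at 2.39-fold higher with detection in 38.6% of cells inside against 6.80% outside by the authors' deposited table. Of all cells that detected Plagl1, 46.5% were in cluster 1, the largest such share among the 56 entries. Detection of Plagl1 outside cluster 1 was under the detection floor given above, so it could be listed there only as higher. Shares of widely detected genes are not like it in this respect, and nothing is read from the rank. In the same cluster Cdkn1c was higher, Igf2 was 1.73-fold lower by the authors' deposited table, and H19 was not listed.

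Meg3 is a long noncoding RNA of the Dlk1-Dio3 domain. It was the most widely detected of the 9, in 81.8% of all cells. It was higher in cluster 1 at 2.17-fold and in cluster 2 at 2.02-fold, with 96.7% and 94.0% of cells inside against 79.5% and 80.1% outside, per the authors' deposited table. Cluster 3 was 3.25-fold lower, cluster 8 2.51-fold, cluster 0 2.02-fold and cluster 14 2.02-fold lower by the authors' deposited table. Detection in clusters 3 and 14 was 63.6% and 51.4% of cells inside against 83.9% and 81.9% outside, per the authors' deposited table. Cluster 7 was 1.70-fold lower although 81.5% of cells inside against 81.8% outside detected Meg3 by the authors' deposited table. Cluster 6 was 1.81-fold lower, with 63.0% of cells inside against 83.4% outside, per the authors' deposited table. The values of clusters 6 and 7 passed under the threshold when cluster 1 or cluster 2 was left out of the cells they are set against, at 1.56-fold and 1.47-fold lower without cluster 1.

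Mest encodes a protein of the alpha/beta hydrolase fold and is named for its expression in embryonic mesoderm. It was detected in 58.6% of all cells. In the authors' deposited table it was 3.14-fold higher in cluster 1, 2.36-fold in cluster 4, 2.05-fold in cluster 6 and 1.70-fold in cluster 11. These 4 clusters detected it in 92.1% to 98.5% of cells inside, against 52.9% to 57.8% outside, per the authors' deposited table, and together they held 50.6% of all cells that detected it and 31.4% of all cells. It was the fourth strongest gene of cluster 4, which is led by Ccnd2 and Fgf8. The value of cluster 11 passed under the threshold of 1.65-fold when any of clusters 0, 2, 3, 7 and 8 was left out of the cells it is set against, for example at 1.56-fold higher without cluster 2. Mest was lower in 6 clusters, by 5.98-fold in cluster 14, 5.74-fold in cluster 8, 4.01-fold in cluster 0, 3.78-fold in cluster 7, 2.86-fold in cluster 3 and 2.78-fold in cluster 2, by the authors' deposited table. Cluster 7 and cluster 0, which share Crabp1 as their leading gene, stood at levels of 0.279 and 0.282 of the mean of all cells.

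Nnat encodes neuronatin, a small membrane protein of the endoplasmic reticulum that is abundant in the developing brain. It had the widest range of the 9 genes, 50.4-fold between its highest and its lowest level. Cluster 12, with 3 of 4 neuron markers higher (Tubb3, Stmn2 and Elavl3), was 5.43-fold higher, with 97.1% of cells inside against 61.9% outside by the authors' deposited table. Clusters 1, 6 and 10 were 2.26-fold, 2.19-fold and 1.85-fold higher by the authors' deposited table. Cluster 2, with all 4 cardiomyocyte markers higher (Actc1, Myl7, Tnnt2 and Myh6), was 11.2-fold lower and detected Nnat in 5.20% of cells inside against 70.8% outside by the authors' deposited table.

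Nnat was lower in 6 further clusters. These were cluster 8 at 5.11-fold lower, cluster 14 at 4.74-fold, cluster 3 at 3.46-fold, cluster 9 at 2.69-fold, cluster 0 at 2.18-fold and cluster 7 at 2.08-fold, by the authors' deposited table. As for Meg3, detection in cluster 7 was close to that of the other cells, with 61.7% of cells inside against 62.5% outside by the authors' deposited table. The 4 clusters that do not list Nnat detected it in 86.8% of cells on average, at a mean level of 1.40. Without cluster 2 among the cells it is set against, cluster 10 was 1.63-fold higher and passed under the threshold.

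**Figure D3:**
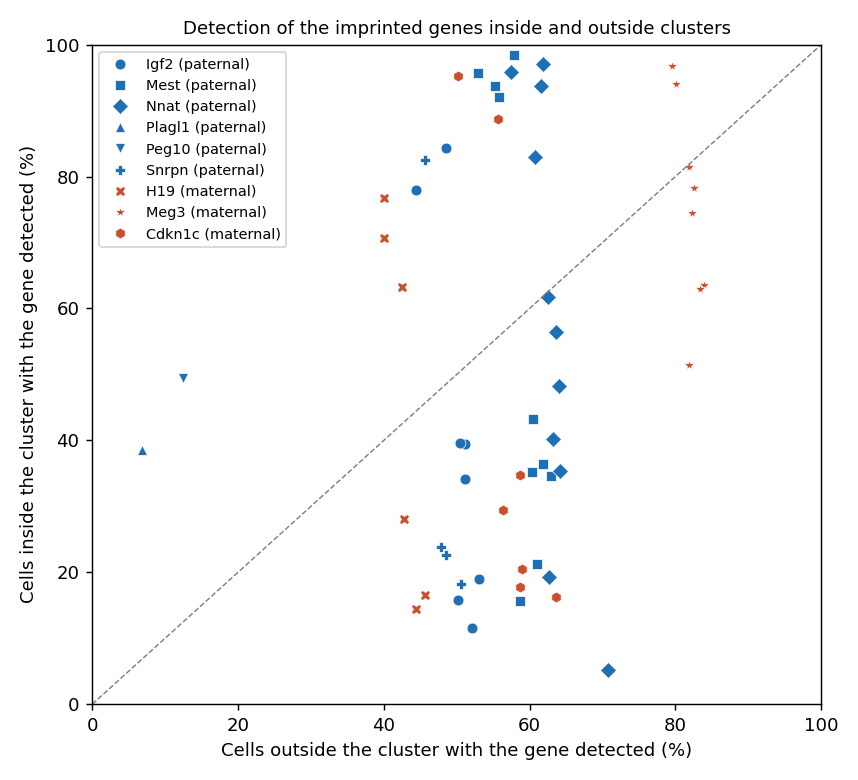
Percent of cells with each gene detected inside a cluster (vertical axis) against outside it (horizontal axis), 1 point per entry, blue for paternally and orange for maternally expressed genes. Points above the dashed line are higher inside: Plagl1 stands at the far left at 38.6% inside against 6.80% outside, and Meg3 stands at the right, near 80% outside in all its entries.

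Peg10 derives from a retrotransposon and is needed for the placenta in the mouse. It was listed for cluster 14 alone, at 2.89-fold higher with 49.5% of cells inside against 12.4% outside by the authors' deposited table. Cluster 14 makes up 0.291% of all cells and held 1.15% of those that detected Peg10. Of the 4 extraembryonic endoderm markers looked up, 2 (Ttr and Sox17) were in the table and both were higher in cluster 14, too few to name it. Of the 4 epithelial and streak markers, 3 (Krt8, Cldn6 and Epcam) were also higher there. Leaving the cluster unnamed was a choice, since its markers belong to more than 1 list, which also holds for clusters 3, 8 and 12.

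Snrpn encodes the SmN protein of the spliceosome and shares its transcript with Snurf. It was higher in cluster 8, at 2.31-fold with 82.5% of cells inside against 45.6% outside by the authors' deposited table. It was lower in cluster 14 at 2.33-fold, in cluster 5 at 1.92-fold and in cluster 10 at 1.73-fold, all from the authors' deposited table. Cluster 8, with all 4 pluripotency markers higher (Pou5f1, Dnmt3b, Utf1 and L1td1), was pluripotent-like, and Snrpn was the only one of the 9 genes listed higher there, while 6 were listed lower. Cldn6 and Epcam, from the epithelial and streak markers, were also higher in cluster 8. Cluster 10 passed under the threshold without cluster 8 among the cells it is set against, at 1.61-fold lower.

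Read by cluster, several clusters listed many of the 9 genes in 1 direction. In cluster 8, 6 of the 9 were lower and 1 higher, where 4.26% of all genes were lower and 5.51% higher. In cluster 3, with all 4 epithelial and streak markers higher (Krt8, Cldn6, Epcam and T), the same 6 genes (Igf2, Mest, Nnat, H19, Meg3 and Cdkn1c) were lower and none was higher, where 3.01% of all genes were lower and 5.26% higher. In cluster 14, 5 were lower and 2 higher, where 9.19% of all genes were lower and 26.2% higher. The low genes there were Mest, Nnat, Snrpn, Meg3 and Cdkn1c, and the high ones H19 and Peg10.

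The nascent-mesoderm-like clusters 0 and 7 had 3 and 5 of the 5 markers of that type higher. Each listed 4 genes lower, against 3.76% of all genes in cluster 0 and 2.84% in cluster 7, and these were Mest, Nnat, Meg3 and Cdkn1c in both. Each also listed 1 gene higher, Igf2 in cluster 0 and H19 in cluster 7, where 3.09% and 3.34% of all genes were higher.

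Cluster 1 was neural-progenitor-like, with Sox2, Rax and Lhx2 of 4 markers higher. It listed 5 genes higher, Mest, Nnat, Plagl1, Meg3 and Cdkn1c, and 1 lower, Igf2, where 3.93% of all genes were higher and 2.59% lower. Neuron-like cluster 12 listed Nnat and Cdkn1c higher and Igf2 and H19 lower, where 7.77% of all genes were higher and 3.84% lower. Cluster 6, led by Pcp4l1, Tpbg and Wnt1, listed Mest and Nnat higher and Igf2 and Meg3 lower, where 2.51% of all genes were higher and 2.17% lower. Cluster 4 listed Mest higher and Igf2 lower, where 1.92% of all genes were higher and 2.42% lower.

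Cardiomyocyte-like cluster 2 listed only 3 of the 9 genes, Meg3 higher and Mest and Nnat lower. This cluster listed 22.7% of all genes as higher and 25.7% as lower, so 1 of 9 genes higher and 2 of 9 lower is near the share of all genes there. Mesenchyme-like clusters 5 and 10, with 3 and 4 of 4 collagen and Postn markers higher, both listed Snrpn lower, beside H19 higher in cluster 5 and Nnat higher in cluster 10. In cluster 5, 4.09% of all genes were higher and 4.26% lower, and in cluster 10 these shares were 6.85% and 4.09%. Cluster 9 listed Igf2 higher and Nnat lower, where 9.61% of all genes were higher and 4.01% lower. Cluster 11 listed Mest alone, where 0.835% of all genes were higher and 1.59% lower. Cluster 13, which had the same 4 cardiomyocyte markers higher as cluster 2 but was left unnamed, listed none of the 9, where 5.35% of all genes were higher and 2.01% lower.

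The paternally and maternally expressed genes were compared next. The 6 paternal genes had 35 entries, 13 higher and 22 lower, and the 3 maternal genes had 21 entries, 7 higher and 14 lower. Entries were thus higher for 37.1% of the paternal and 33.3% of the maternal ones, a difference of 3.81 percentage points, against 59.0% over all genes of the table. Median detection over all cells was 48.7% for paternal, 56.2% for maternal and 21.2% for all genes, so the 59.0% is not a like background. The median fold of the higher entries was 2.31 for paternal and 2.17 for maternal genes, and the median of the lower ones was 2.98-fold and 3.12-fold lower, from the authors' deposited table. With cluster 2 left out of the cells the others are set against, the difference was -3.51 percentage points, and without Igf2 and H19 it was 14.1, so its direction and size rest on few entries. Plagl1 and Peg10, both paternal, were detected in 6.80% and 12.4% of cells outside their listing cluster, under the detection floor of 25.1%. Their 1 entry each could thus be listed only as higher, and both count in the paternal share. Nothing is therefore read from the difference.

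**Figure D4:**
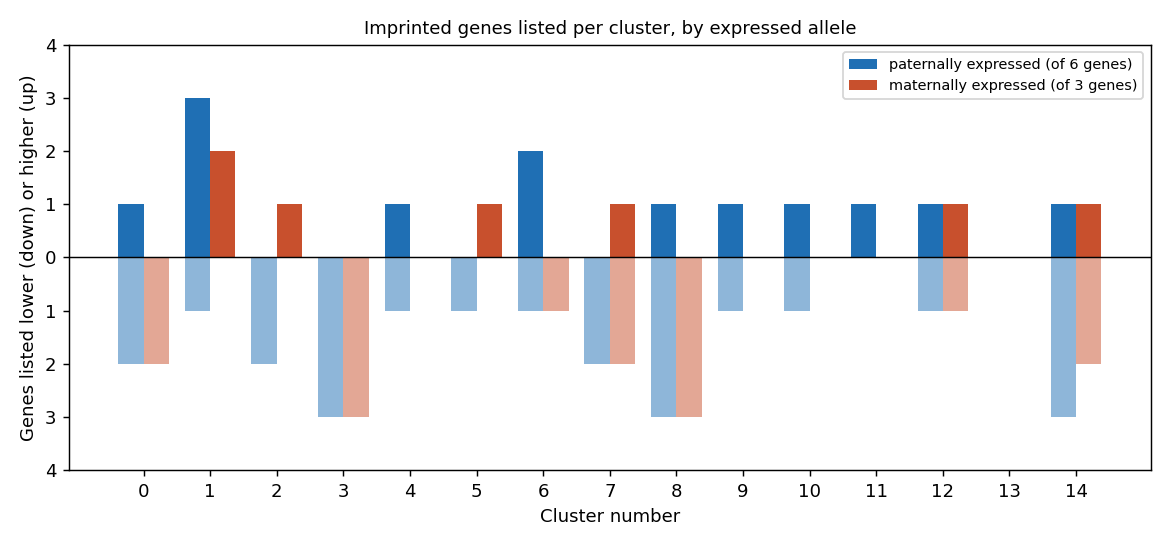
Number of paternally expressed (blue, of 6) and maternally expressed (orange, of 3) genes listed higher (upward, full colour) and lower (downward, pale) in each cluster. In clusters 3 and 8 the classes each list 3 genes lower, and in cluster 1 the paternal class lists 3 higher and the maternal class 2.

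Directions were also set side by side for pairs of genes. Mest and Nnat, both paternal, were listed together for 8 clusters and in the same direction in all 8. Nnat and the maternal Cdkn1c shared 7 clusters, all in the same direction, and Mest and Cdkn1c shared 6, all in the same direction. Meg3 and Cdkn1c, both maternal but on different chromosomes, shared 6 clusters and also had the same direction in all 6. In contrast, Igf2 and Nnat, both paternal, shared 7 clusters and were opposite in 5, and Igf2 and Mest were opposite in 4 of 6. Snrpn and H19 shared 3 clusters and were opposite in all 3. Summed over pairs, a paternal with a maternal gene had 42 shared entries in the same direction and 21 opposite, paternal pairs 16 and 17, and maternal pairs 10 and 5. These pairs share genes, cells and clusters, so the counts are a description. How often other gene pairs of the table have the same direction was not worked out. Of the 56 entries 36 were lower, which by itself favours the same direction. The sums also include the entries of Plagl1 and Peg10, whose direction the detection floor fixed.

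The promoters of Nnat, Mest and Meg3 are shown because these 3 genes had the same direction in clusters 0, 1, 3, 7, 8 and 14, 6 of the 8 clusters that list all 3, and because imprinting acts through methylation of CpG sites. In the other two, clusters 2 and 6, Meg3 was opposite to Mest and Nnat. RefSeq promoters were matched for 6 of the 9 genes (Igf2, Mest, Nnat, Plagl1, Snrpn and Meg3). Each line gives the 250 bases before a transcript start in build GRCm38.p6, 5′ to 3′ on the gene's strand, with CpG sites in capitals.
Nnat: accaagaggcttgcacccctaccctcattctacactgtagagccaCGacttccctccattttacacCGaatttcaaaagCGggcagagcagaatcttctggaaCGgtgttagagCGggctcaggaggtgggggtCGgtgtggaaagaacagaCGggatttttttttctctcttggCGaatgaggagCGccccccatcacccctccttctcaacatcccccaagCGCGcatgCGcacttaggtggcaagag
Mest: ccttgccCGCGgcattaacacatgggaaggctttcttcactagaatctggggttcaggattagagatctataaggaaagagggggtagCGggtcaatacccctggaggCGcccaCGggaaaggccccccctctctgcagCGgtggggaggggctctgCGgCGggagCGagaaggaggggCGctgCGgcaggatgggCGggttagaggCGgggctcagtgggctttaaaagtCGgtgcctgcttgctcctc
Meg3: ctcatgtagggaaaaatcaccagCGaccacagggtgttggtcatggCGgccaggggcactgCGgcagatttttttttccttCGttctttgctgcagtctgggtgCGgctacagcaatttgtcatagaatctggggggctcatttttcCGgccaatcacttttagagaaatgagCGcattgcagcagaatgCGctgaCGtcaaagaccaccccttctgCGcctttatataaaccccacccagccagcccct
The windows with the most CpG sites were taken. They lie at chr2:157559828-157560077, chr6:30737800-30738049 and chr12:109540746-109540995, all on the plus strand. The Mest window holds 14 CpG sites, the Nnat window 12 and the Meg3 window 10, against a median of 6 over the 32851 promoters of the table. Of all promoters, 70.6%, 66.5% and 62.2% hold fewer sites than these windows, in that order. Where a gene had several windows the choice favoured a high count, so no excess is read from this. Mest has another 2 windows with 7 and 14 CpG sites, and Meg3 another with 0. The TATA box letters TATAAA, searched on both strands, were in the Meg3 window shown and in no other window of Mest, Nnat or Meg3, and 12.4% of all promoters hold them. This describes the letters of the windows only, and methylation was not measured.

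Other genes had patterns like these across the 15 clusters. Likeness was the Pearson correlation of the deposited log fold changes, with an unlisted cluster counted as 0, among 112 genes listed for at least 4 clusters. It is a description, since all points share the same cells. Only 3 to 9 clusters listed both genes of any pair named below, and unlisted clusters add zeros. Cdkn1c was most like Pfn2, a profilin, at r = 0.973, and Ssbp2, at r = 0.951, and then Mest at r = 0.853. Mest was most like Id3, a target of BMP signalling, at r = 0.900, and Ssbp2 at r = 0.875. Meg3 was most like Ssbp2 at r = 0.867 and Cdkn1c at r = 0.810, with Pfn2 at r = 0.795. Nnat was most like the cyclin gene Ccnd2 at r = 0.789, the tubulin regulator Stmn1 at r = 0.779 and the transcription factor Sox4 at r = 0.770.

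For Igf2, H19 and Snrpn the correlations were lower. Igf2 was most like the matrix proteoglycan Vcan at r = 0.613, H19 at r = 0.608 and the collagen chaperone Serpinh1 at r = 0.596. H19 was most like Serpinh1 at r = 0.719, Cd63 at r = 0.687 and the matrix protein gene Sparc at r = 0.658. Snrpn was most like Bex1 at r = 0.678, Ldha, a lactate dehydrogenase, at r = 0.654 and Bex2 at r = 0.603. Ldha and Bex2 are not listed for cluster 8, the only cluster where Snrpn was higher.

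Further imprinted genes were looked up from a list of 28 paternally and 32 maternally expressed genes. The table held 6 of the 28, with 7 entries higher and 5 lower, and 3 of the 32, with 4 higher and 1 lower. Over all genes, 59.0% of entries were higher. The higher entries of Slc38a4, Airn, Inpp5f and Igf2r had detection of 4.2% to 12% outside the cluster. This is under the detection floor given above, so they could be listed only as higher. Nothing is therefore read from the counts of higher and lower entries. The 4 higher maternal entries were all in clusters 2 and 9, which list 22.7% and 9.61% of all genes as higher. Ndn, which encodes the growth suppressor necdin, was higher in cluster 1 at 1.93-fold and in cluster 12 at 2.25-fold, and lower in clusters 3, 8 and 14 by 1.97-fold, 2.18-fold and 2.29-fold, by the authors' deposited table. These 5 directions are those of Nnat and Cdkn1c in the same clusters. Peg3, a zinc finger gene, was 1.69-fold higher in cluster 1 and 1.85-fold lower in cluster 0 by the authors' deposited table. The amino acid transporter gene Slc38a4 was higher in cluster 9 at 2.75-fold and in cluster 2 at 1.75-fold by the authors' deposited table. In cluster 14, Zdbf2 and Gnas were 1.77-fold and 1.74-fold lower and Inpp5f was 1.66-fold higher by the authors' deposited table.

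The receptor Igf2r, which removes IGF2 from the cell surface and is maternally expressed, was higher in cluster 2 and cluster 9. In the authors' deposited table it was 3.36-fold higher in cluster 2, with 51.3% of cells inside against 7.50% outside, and 2.39-fold higher in cluster 9. Airn, the paternally expressed RNA that overlaps Igf2r in the antisense direction, was 2.14-fold higher in cluster 2 by the authors' deposited table. The sources used here do not say whether the counting used strand, so reads of this pair may not be separated. Cd81, a tetraspanin gene of the Cdkn1c region, was 2.06-fold higher in cluster 2 and 2.21-fold in cluster 9 by the authors' deposited table. Cluster 9 thus listed Igf2 and Igf2r both higher, while cluster 2 listed Igf2r and not Igf2.

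Of 24 genes of insulin-like growth factor signalling, 6 were in the table, Igf2r among them. They had 14 entries higher and 11 lower, where 59.0% of all entries of the table were higher. The higher entries of Igf2r, Igfbp4, Igfbp5 and Igfbp7 had detection of 2.2% to 24.4% outside the cluster. This is under the detection floor given above, so these entries could be listed only as higher. Nothing is therefore read from the counts of higher and lower entries. Igfbp2, which encodes an IGF binding protein, was lower in cluster 2 at 5.61-fold and in cluster 0 at 3.32-fold by the authors' deposited table. Igf2 was higher in cluster 0 and was not listed for cluster 2, and cluster 9, where Igf2 was highest, did not list Igfbp2. Igfbp2 had 10 entries, 5 of them higher, up to 2.69-fold in cluster 6 by the authors' deposited table. Igfbp7, another binding protein gene, led cluster 9 at 5.53-fold higher by the authors' deposited table. Igfbp4 was 3.79-fold higher in cluster 10 and 3.04-fold in cluster 5, and Igfbp5 was 2.60-fold higher in cluster 2, by the authors' deposited table. Igfbp4 was also listed lower in clusters 2, 3, 8, 13 and 14, by 1.72-fold to 2.24-fold in the authors' deposited table. Igf2bp1, whose protein binds Igf2 mRNA, was 1.75-fold lower in cluster 2 by the authors' deposited table.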

How the data were processed

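The authors deposited 1 table of cluster markers. Cell Ranger and Seurat were run against mm9, per the submitters' processing notes, with versions, cell filters and treatment of doublets not given in the sources used here. Values of the deposited fold change were read as natural log values, since their header carries the name Seurat uses for these, and folds in the text are their exponential. The header states no base. For 20 genes listed for at least 10 clusters, what is left for the unlisted clusters lay within the table's threshold for 19 with the natural base, 14 with base 2 and 0 with base 10. The constant the authors added before the log is not known, which makes folds of scarce transcripts a lower estimate. The deposited fraction of cells with a gene is printed as a percent. The deposited p-values compare cells, which are not replicates, and served only as a filter in 1 alternative. The smallest absolute natural log fold change was 0.500 and the larger detection in each entry at least 25.1%.

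Cluster sizes were solved by least squares from 407 genes listed for at least 2 clusters, since detection over all cells must be the same from each (residual SD 0.0272 percentage points, sum 100.002%). With size s and fold f, the level over the mean of all cells is f/(1 - s + s f), in which level and mean both include the added constant. On a simulated table of 717 genes, sizes were recovered within 0.0254 percentage points and levels within 0.121%. The simulated folds held no measurement noise and used the natural log. The simulation therefore checked the calculation, and not the log base or the constant of the deposited values. All 9 names matched the reference's symbols.

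All 9 genes were described in every cluster, with the further imprinted, IGF and kinase inhibitor genes of the lists and the 3 genes most like each. A cluster was named only with at least 3 cell type markers higher. Clusters 3, 13 and 14 also had that many and were left unnamed by choice. Cluster 3 also had Pou5f1, Stmn2, Ifitm1 and Cer1 higher, from other marker lists. Clusters 8 and 12 were named although markers of a further list were higher there. The members, lists and markers were chosen with earlier results of these data known. Several markers, such as Rax, Lhx2, Pou5f1 and Dnmt3b, are themselves leading genes of the clusters they name, so the names are labels and not tests. Calculations used Python 3.11.15, numpy 2.4.6, pandas 2.3.3 and matplotlib 3.10.9. Alternatives were stricter thresholds, other reference cells, other sizes and base 2.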

Additional observations from a re-analysis of the deposited data

How the results depend on the processing

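With natural log fold changes of 1 or more in size, the 9 genes kept 6 entries higher and 21 lower, of which 4 and 13 were paternal and 2 and 8 maternal. Without Igf2 and H19, maternal genes had 4 higher entries. The share of higher entries, paternal minus maternal (3.81 percentage points), was 7.14 with adjusted p-values under 0.001, 0.505 with detection at least 10 percentage points apart, 14.1 without Igf2 and H19, and -3.51 with cluster 2 left out of the reference. In a check chosen after seeing the data, it was 0.301, 1.96, 1.96 and 6.06 with clusters 1, 3, 7 and 9 left out of the reference in turn. It is a difference of few entries, among them those of Plagl1 and Peg10, whose direction the detection floor fixed. Over all such omissions 396 values were recomputed: 15 passed under the threshold, 0 changed direction and 0 moved by over 1.5 times. Read as base 2, the highest level (Nnat in cluster 12) was 3.12 in place of 5.07, and 11 of 56 levels moved by over 1.5 times, none across the mean. Sizes from 112 genes listed for at least 4 clusters changed levels by at most 0.0281% and shares by at most 3.59%. No paired analysis was possible because each group is 1 library and the table names none. Depth and cell numbers are unknown, so no counting interval was made.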
